A study of Homo sapiens with 6 samples.

Results

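Genes of DNA replication and of the G1/S transition were followed in cells labelled as a prostate cancer line. The cells were given a vector to overexpress the long non-coding RNA LINC01518. The group held 58 genes, chosen by name for their roles in replicating DNA and in starting S phase. They were chosen with earlier results of these data known. All 58 were among the 20263 genes of the count table. Each had reads in every library (lowest count 265) and all 58 passed the filter on low counts. RNA sequencing was made on total RNA of cells given in the labels as LNCaP, an established human prostate cancer line described there as hormone-dependent. There were 3 libraries from cells with the LINC01518 overexpression vector and 3 from cells with an empty vector. No time after transfection is stated. Nor do the labels tell separate cultures from repeat libraries of 1 culture, so each p-value below reflects library-to-library spread that may be technical alone. The series description names another insert, MEG3, so the groups carry the names of their samples. The overexpression itself was left unchecked, as the count of neither RNA was analysed here.

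Library totals lay between 38161544 and 42553688 counts with 3 libraries a group. Of 9 genes that mark LNCaP or luminal prostate cells, KLK3, KLK2, TMPRSS2 and FOLH1 had 0 counts in all 6 libraries, where a count of 0 allows a level of at most 0.0703 to 0.0794 CPM by library, for counting error only. CPM are counts over the library's size, scaled by the TMM method. The luminal keratin gene KRT8 averaged 1670.0 ± 46.2 CPM with overexpression and 1363 ± 62.1 CPM with empty vector (SD, n = 3 each), and KRT18 averaged 1078 ± 45.5 CPM with overexpression and 995 ± 76.3 CPM with empty vector (SD, n = 3 each). The 0 counts of KLK3, KLK2, TMPRSS2 and FOLH1 do not match the LNCaP label, and the identity of the line was not tested. The cells are therefore named by their label only. Of 5 fibroblast markers 2 were higher with overexpression, COL1A1 and PDGFRB. The summed level of the 5 was 153 to 157 CPM with overexpression and 111 to 122 CPM with empty vector. Most of this sum was COL1A1, which averaged 114.2 CPM with overexpression and 82.45 CPM with empty vector. The groups overlapped for DCN, LUM had 0 counts, and COL1A2 had at most 2 counts in any library. In the deposited TPM, PDGFRB overlapped between groups. TPM are levels per transcript length, and for a given gene they were not a fixed multiple of its CPM. The mean of PDGFRB was 15.66 TPM with overexpression and 16.33 TPM with empty vector. The summed level of the 4 immune markers stayed under 3 CPM in every library. The part of these markers in the results below was not tested.

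Replication is prepared in G1, when the origin recognition complex, CDC6 and CDT1 load MCM2 to MCM7, the ring-shaped helicase, onto DNA. At the start of S phase the kinases CDC7-DBF4 and cyclin E-CDK2 switch the helicase on by adding CDC45 and the GINS complex, and polymerases alpha, delta and epsilon copy the strands with the sliding clamp PCNA. Many of these genes are transcribed together late in G1 by E2F factors, which are held back by the retinoblastoma protein until cyclin D and cyclin E kinases act. In prostate cancer cells androgen is known to promote entry into S phase.

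The E2F factors bind sites close to the start of many of these genes, and the sequences shown here are those of genes whose levels are described afterwards. An 8-letter E2F motif was searched for in 4 versions, TTTCCCGC, TTTGGCGC, TTTCGCGC and TTTGCCGC, on both strands, in RefSeq windows (GRCh38.p14) of 250 bases before and 50 bases after each annotated start. The versions can overlap each other on opposite strands. A window was given for 51 of the 58 genes, and 28 of these (54.9%) held the motif, against 6.48% of the 10736 tested genes with a window and 3.31% of all 35116 windows. Each stretch below is on the strand of its gene, 5′ to 3′, with motif matches in capitals, and a match is a description of the letters and not a bound site. MCM7 held a further match before its start, within chr7:100101566-100101595 (minus strand), which is not printed. The MCM6 stretch is the 160 bases before the start (chr2:135876444-135876603, minus strand) and the others are 30 bases around a match, namely MCM2 (chr3:127598404-127598433, plus strand), MCM3 (chr6:52284898-52284927, minus strand and chr6:52284728-52284757, minus strand), MCM7 (chr7:100101388-100101417, minus strand), CDT1 (chr16:88803743-88803772, plus strand), TYMS (chr18:657603-657632, plus strand) and E2F1 (chr20:33686393-33686422, minus strand).
MCM6: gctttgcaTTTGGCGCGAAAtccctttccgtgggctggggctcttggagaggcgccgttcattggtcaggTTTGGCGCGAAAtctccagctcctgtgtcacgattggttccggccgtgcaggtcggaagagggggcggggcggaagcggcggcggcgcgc
MCM2: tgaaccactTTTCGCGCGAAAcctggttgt
MCM3, distal: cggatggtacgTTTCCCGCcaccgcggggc
MCM3, at the start: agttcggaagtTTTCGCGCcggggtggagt
MCM7: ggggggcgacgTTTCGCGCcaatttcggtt
CDT1: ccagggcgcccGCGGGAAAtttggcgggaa
TYMS: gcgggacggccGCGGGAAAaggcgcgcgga
E2F1: tttcGCGGCAAAaaggaTTTGGCGCgtaaa
MCM6 held the same 12-letter run TTTGGCGCGAAA 2 times, with a match on each strand. Of the 8 genes with a window that were higher with overexpression, 5 held the motif (MCM2, MCM3, CDT1, TYMS and E2F1), and of the 42 that were not called 23 did. The 28 genes with the motif had a median log2 fold change of 0.09 and the 23 without it had 0.09.

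With overexpression, 10 of the 58 genes rose and 1 fell at an adjusted p under 0.05. Those that rose were the helicase subunit genes MCM2, MCM3 and MCM5, the licensing genes ORC1 and CDT1, the polymerase delta genes POLD1 and POLD3, the flap nuclease gene FEN1, the thymidylate synthase gene TYMS and the factor gene E2F1. The gene that fell was RAD51AP1. The changes were small, 1.17-fold to 1.3-fold among those that rose. Across all 13543 genes tested, edgeR called 3.57% higher and 2.03% lower, and the share of the 58 genes that rose was 17.2%. Either way, 11 of 58 (19%) were called, against 5.6% of all genes. In CPM, 24 of the 58 genes had all 3 overexpression libraries above all 3 empty vector libraries and 4 had them below. That was 48.3% in all, against 31.4% of all genes tested (15.9% above and 15.5% below). At an unadjusted p under 0.05, 21 of the 58 were higher and 3 lower, or 41.4% in all, against 23.6% of all genes (12.3% higher and 11.4% lower). These shares of all genes are also the background for the counts by role below. As the 58 were chosen with earlier results of these data known, the contrasts with all genes are a description only. With scaling by library size only, edgeR called 2.55% of all genes higher and 2.82% lower, and 7 of the 58 higher and 1 lower, without MCM2, ORC1 and POLD3. The median log2 fold change of the 58 was 0.09, and that of all genes tested was -0.0035. In these bulk samples, more cells in S phase and more of these RNAs per cell cannot be told apart.

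**Figure D1:**
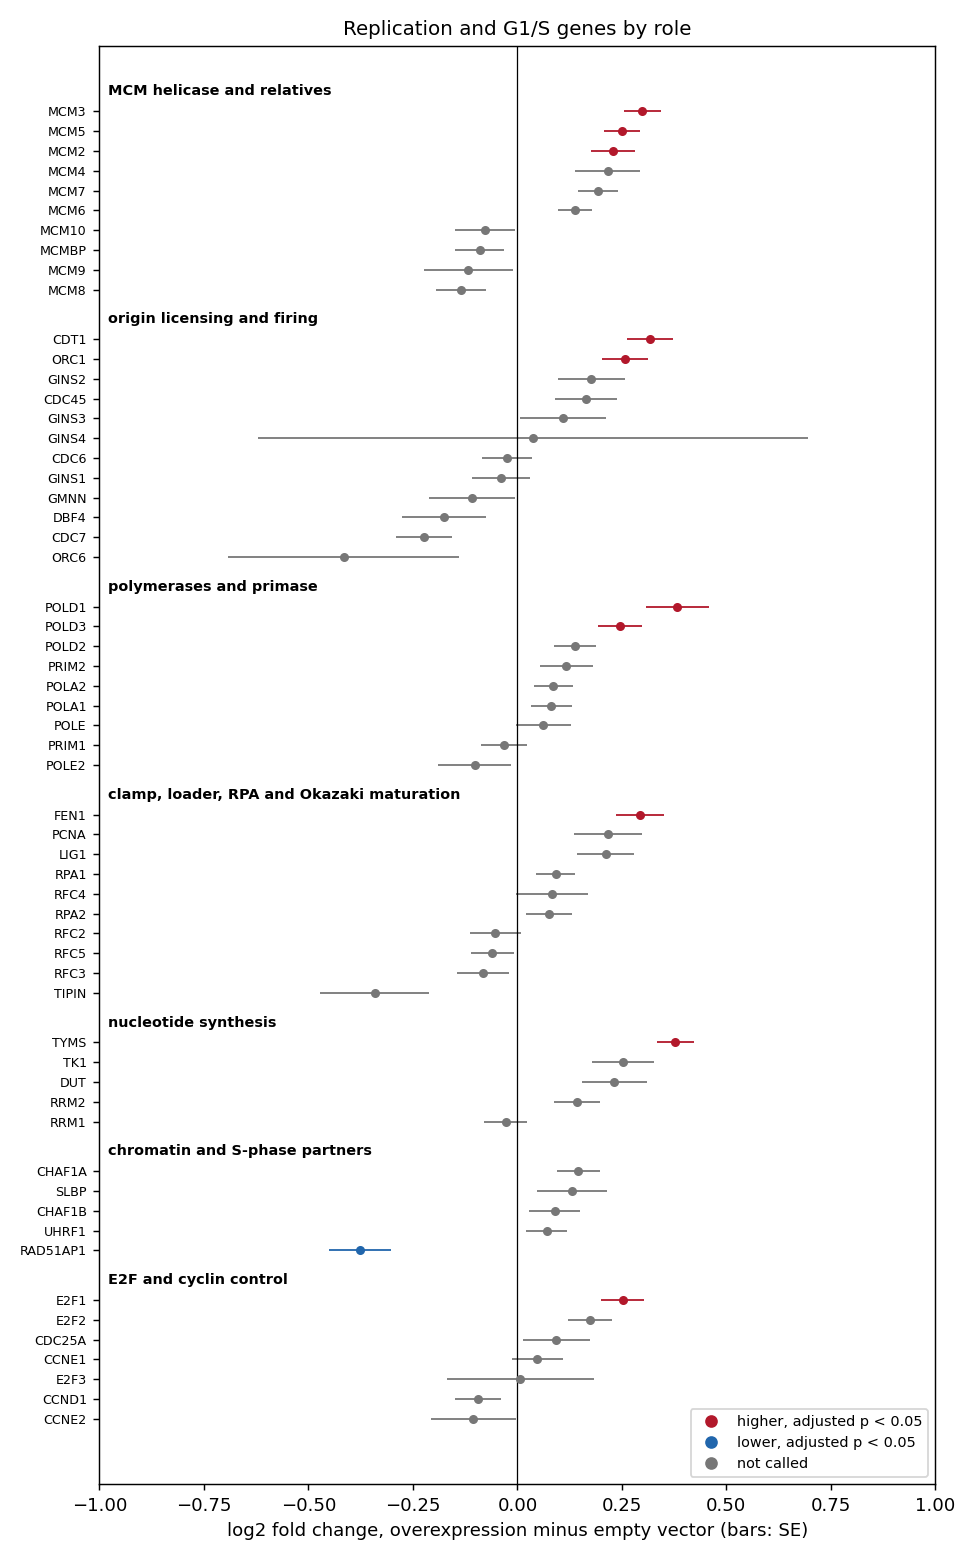
Log2 fold change (horizontal axis, overexpression minus empty vector) of each of the 58 genes, grouped by role, with bars for the SE and colour for calls at an edgeR adjusted p under 0.05. The 6 genes MCM2 to MCM7 all lie right of 0, and MCM8, MCM9, MCM10 and MCMBP all lie left of it.

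In CPM, the genes of the replicative helicase MCM2 to MCM7 lay above the empty vector libraries as a whole set. In 6 of 6 the overexpression libraries did not overlap with the empty vector libraries on this scale, and 3 of the 6 passed the test. Of all genes tested, 15.9% lay above in this way and 3.57% were called higher. On the deposited TPM, MCM4 and MCM5 overlapped between groups. None of the 6 was called on TPM (limma adjusted p 0.0596 to 0.37), where limma called 1.76% of all genes. MCM3 had 315, 307 and 324 CPM in the overexpression libraries, against 248, 261 and 260.1 CPM in the empty vector libraries. Its lowest overexpression library stood above its highest empty vector library, a rise past the spread (log2 fold change 0.30, SE 0.0442, adjusted p by edgeR 0.0128; chromosome 6, 52264009 to 52284881, GRCh38). MCM5 had 188, 185 and 184 CPM in the overexpression libraries, against 155, 161 and 152 CPM in the empty vector libraries, and the libraries of each group lay within a narrow band (log2 fold change 0.25, SE 0.0431, adjusted p by edgeR 0.0201; chromosome 22, 35400063 to 35425430). MCM2, the most abundant of the set, had 592, 566 and 558 CPM in the overexpression libraries, against 456, 509 and 499 CPM in the empty vector libraries. Its call rested on a p just under the threshold (log2 fold change 0.23, SE 0.0534, adjusted p by edgeR 0.049; chromosome 3, 127598223 to 127622436).

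The other 3 subunit genes were not called. MCM7 had 449, 439.5 and 449 CPM in the overexpression libraries, against 367, 399 and 403 CPM in the empty vector libraries (log2 fold change 0.19, SE 0.0481, adjusted p by edgeR 0.0582). MCM4 had 306, 291 and 359 CPM in the overexpression libraries, against 284, 268 and 271 CPM in the empty vector libraries, and overexpression replicate 3 stood well above the other 2 (log2 fold change 0.22, SE 0.0776, adjusted p by edgeR 0.148). MCM6 had 199, 192 and 199.7 CPM in the overexpression libraries, against 182, 179.7 and 176 CPM in the empty vector libraries (log2 fold change 0.14, SE 0.0414, adjusted p by edgeR 0.0949). The log2 fold changes of the 6 subunit genes lay between 0.14 and 0.30, and all 6 were positive in all 19 alternative fits. As their groups did not overlap in CPM, leaving out 1 library could hardly have changed the sign. Without any 1 of the 6 libraries the call of MCM2 was lost (edgeR adjusted p 0.0741 to 0.157). The call of MCM3 was lost without overexpression replicate 1 (0.0523) or 3 (0.0607), and that of MCM5 without overexpression replicate 1, 2 or 3 (0.0792, 0.0682 and 0.0747).

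**Figure D2:**
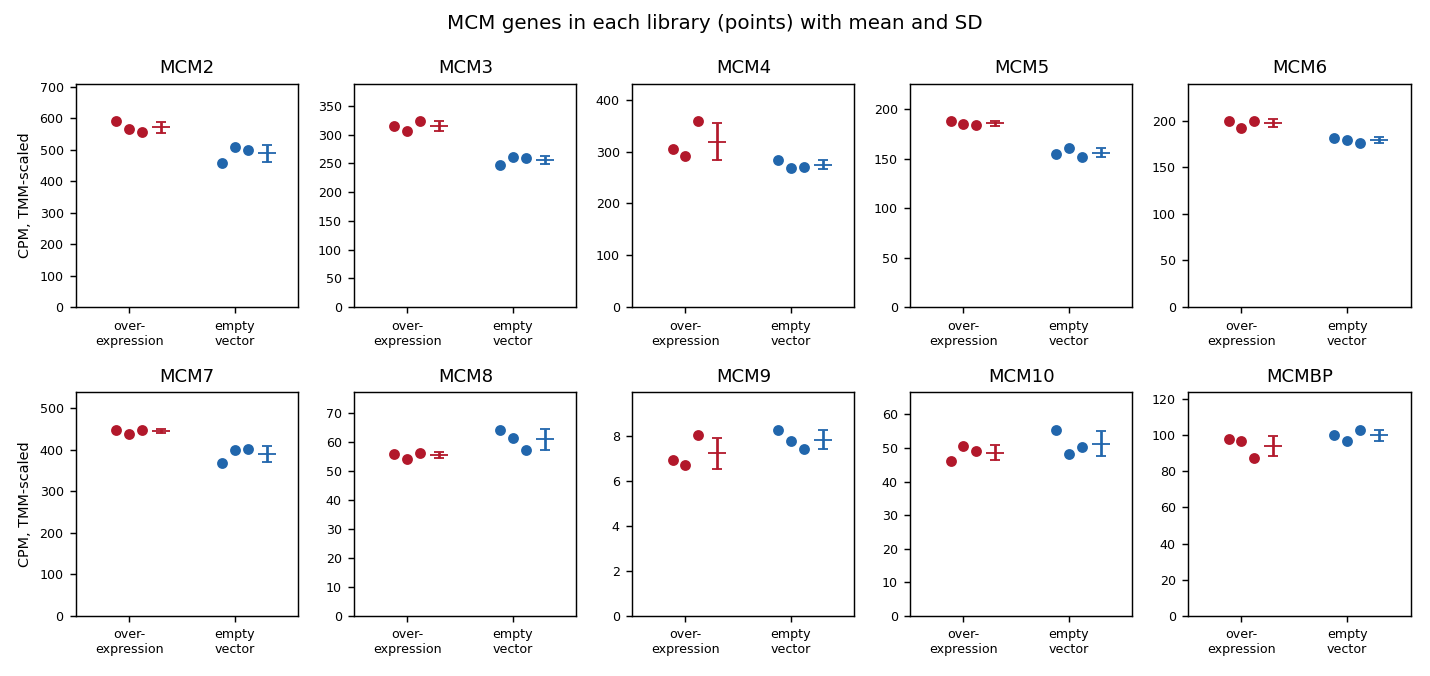
CPM (vertical axes, from 0) of the 10 MCM genes in each library, with overexpression at left and empty vector at right, and the mean with SD beside the points. MCM2 to MCM7 do not overlap between groups, whereas MCM9, MCM10 and MCMBP do.

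The relatives of the helicase did not share that direction. MCM8 and MCM9, which form a separate complex in homologous recombination, had log2 fold changes of -0.14 and -0.12, MCM10, which helps activate the helicase, -0.08, and MCMBP, a binding partner of MCM proteins, -0.09. None of the 4 passed the test (edgeR adjusted p = 0.219, 0.554, 0.561 and 0.385). MCM8 had 56.0, 54.2 and 56.3 CPM in the overexpression libraries, against 64.3, 61.3 and 57.2 CPM in the empty vector libraries, and these groups did not overlap. The deposited TPM are levels per transcript length and library size, but not these counts over a fixed length. For MCM5, the overexpression libraries had 188.4, 185.1 and 183.8 CPM but 140.3, 108.3 and 138.9 TPM. In TPM, the summed level of MCM2 to MCM7 was 1259, 1190.0 and 1258 with overexpression and 1075, 1126 and 1111 with empty vector. In the share of this sum that each subunit gene made up, the libraries of the groups overlapped for all 6 genes. MCM2 made up 25.9% ± 1.30 of the sum with overexpression and 26.1% ± 1.54 with empty vector, and MCM6, the least abundant, 8.25% ± 0.152 and 8.67% ± 0.526 (SD, n = 3 each). MCM5 made up 10.4% ± 1.15 with overexpression and 9.56% ± 0.828 with empty vector, and MCM7 24.7% ± 0.738 and 25.3% ± 0.407. For both, the means differed by more than the SD of the empty vector libraries but by less than that of the overexpression libraries.

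Of 12 genes of origin licensing and firing, 2 rose and 0 fell, and 6 had a positive and 6 a negative log2 fold change. CDT1, which brings the helicase to origins, had 198, 214 and 211 CPM in the overexpression libraries, against 157, 168 and 175 CPM in the empty vector libraries. The groups lay apart by more than the range within either (log2 fold change 0.32, SE 0.0547, adjusted p by edgeR 0.0204; chromosome 16, 88803213 to 88809258). ORC1, the largest subunit of the origin recognition complex, had 57.2, 59.1 and 59.6 CPM in the overexpression libraries, against 49.5, 50.5 and 47.0 CPM in the empty vector libraries, again without overlap (log2 fold change 0.26, SE 0.0551, adjusted p by edgeR 0.0383; chromosome 1, 52372829 to 52404459). GMNN, which encodes geminin, the inhibitor of CDT1, had 52.0, 48.7 and 59.7 CPM in the overexpression libraries, against 63.9, 58.1 and 51.0 CPM in the empty vector libraries, and its groups overlapped (log2 fold change -0.11, SE 0.103, adjusted p by edgeR 0.57). The call of CDT1 was lost without overexpression replicate 2 (0.0721) or 3 (0.0791) or empty vector replicate 2 (0.0658), and that of ORC1 without any 1 library (edgeR adjusted p 0.0702 to 0.137).

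CDC7 and DBF4, whose products form the kinase that fires origins, had log2 fold changes of -0.22 and -0.18 and were not called. CDC7 had 32.5, 34.8 and 31.2 CPM in the overexpression libraries, against 39.9, 37.8 and 37.3 CPM in the empty vector libraries, with all overexpression libraries below all empty vector libraries (log2 fold change -0.22, SE 0.0669, adjusted p by edgeR 0.0947). CDC45 and the GINS subunit genes complete the active helicase. CDC45 was at 0.16, GINS2 at 0.18, GINS3 at 0.11 and GINS1 at -0.04 on the log2 scale, none called. CDC6, the loader ATPase gene, was at -0.03 (edgeR adjusted p = 0.835). GINS4 had 23.6, 21.5 and 62.2 CPM in the overexpression libraries, against 23.1, 21.9 and 59.6 CPM in the empty vector libraries. The third replicate of both groups was over 2.5 times the others, and the log2 fold change of 0.04 had an SE of 0.657. ORC6, a small subunit of the origin recognition complex, had 18.4, 19.2 and 18.9 CPM in the overexpression libraries, against 36.5, 17.9 and 20.9 CPM in the empty vector libraries. One empty vector library was far above the rest, and the log2 fold change of -0.42 became -0.05 without empty vector replicate 1 (edgeR adjusted p = 0.427 with all 6 libraries and 0.81 without it).

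Among 9 genes of polymerases and primase, 2 rose and 0 fell, both of polymerase delta, which copies the lagging strand. POLD1, its catalytic subunit, had 96.1, 100.5 and 106 CPM in the overexpression libraries, against 71.0, 75.8 and 85.4 CPM in the empty vector libraries. That was the highest positive log2 fold change among the 58 genes (log2 fold change 0.38, SE 0.0757, adjusted p by edgeR 0.0314; chromosome 19, 50384204 to 50418016), although the libraries of each group were spread. POLD3, an accessory subunit, had 119.6, 117 and 114 CPM in the overexpression libraries, against 104, 94.5 and 96.8 CPM in the empty vector libraries, with no overlap (log2 fold change 0.25, SE 0.0523, adjusted p by edgeR 0.0379; chromosome 11, 74493851 to 74669117). POLD2, the other delta subunit of the group, had 205, 221 and 214 CPM in the overexpression libraries, against 186, 199.8 and 196 CPM in the empty vector libraries and was not called (log2 fold change 0.14, SE 0.0491, adjusted p by edgeR 0.144). The epsilon genes for leading strand synthesis, POLE and POLE2, were at 0.06 and -0.10, and POLA1, POLA2, PRIM1 and PRIM2, which lay down primers, between -0.03 and 0.12. None of these 6 was called. Of the 6 fits without 1 library, POLD1 kept its call in that without empty vector replicate 3 (0.0222) and POLD3 in that without empty vector replicate 1 (0.0372), and in the others the adjusted p reached 0.107 and 0.123.

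The 10 genes of the clamp, its loader, RPA and Okazaki fragment maturation held 1 that rose. FEN1, the nuclease that trims Okazaki fragments, had 367, 334 and 359.7 CPM in the overexpression libraries, against 272, 289 and 304 CPM in the empty vector libraries. The overexpression libraries all lay above the others (log2 fold change 0.29, SE 0.0574, adjusted p by edgeR 0.0308; chromosome 11, 61792637 to 61797244). A small part of FEN1, 1.98% of its exon bases, lies in FADS2 on the same strand, which also rose (log2 fold change 0.33, edgeR adjusted p = 0.0338). LIG1, the ligase that seals the fragments, had 62.7, 69.7 and 65.3 CPM in the overexpression libraries, against 53.3, 61.0 and 56.6 CPM in the empty vector libraries, apart but not called (log2 fold change 0.21, SE 0.0692, adjusted p by edgeR 0.119). PCNA, the clamp itself, had 206, 180.5 and 187 CPM in the overexpression libraries, against 147, 167 and 179 CPM in the empty vector libraries, and the lowest overexpression library was just above the highest empty vector library (log2 fold change 0.22, SE 0.0813, adjusted p by edgeR 0.161). The clamp loader genes RFC2, RFC3, RFC4 and RFC5 lay between -0.08 and 0.08, and RPA1 and RPA2, which coat single-stranded DNA, at 0.09 and 0.08. The call of FEN1 held without empty vector replicate 3 (0.0345) and was lost without any other library (0.0506 to 0.107).

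TIPIN, which with TIMELESS protects stalled forks, had 10.5, 13.4 and 11.3 CPM in the overexpression libraries, against 16.9, 12.8 and 14.9 CPM in the empty vector libraries, with overlap (log2 fold change -0.34, SE 0.131, adjusted p by edgeR 0.167). On the deposited TPM, its levels were 12.5, 15.7 and 15.5 TPM with overexpression and 31.3, 23.0 and 26.8 TPM with empty vector, and limma, which called 1.76% of all genes on this scale, called it lower (difference in log2(TPM + 0.1) of -0.88, adjusted p = 0.0353). Of its exon bases, 21.0% are shared with a ribosomal protein pseudogene on the same strand, which was not analysed here. Its partner gene TIMELESS, which was outside the 58, rose in counts (173, 176 and 176 CPM with overexpression and 151, 149 and 140.4 CPM with empty vector; log2 fold change 0.25, SE 0.0454, adjusted p by edgeR 0.0239).

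Of the 5 genes of nucleotide synthesis, 1 rose, 4 were higher at an unadjusted p under 0.05 and the median log2 fold change was 0.23. Of all genes tested, 3.57% were called higher and 12.3% were higher at an unadjusted p under 0.05. TYMS, which makes thymidylate from dUMP and is the target of fluoropyrimidine drugs, had 149.8, 142 and 149 CPM in the overexpression libraries, against 113, 111 and 115 CPM in the empty vector libraries. It had the smallest p of the 58 genes and the widest gap relative to the spread between libraries (log2 fold change 0.38, SE 0.0444, adjusted p by edgeR 0.00656; chromosome 18, 657604 to 673578). TYMS kept its call without each of the 6 libraries (edgeR adjusted p 0.0172 to 0.0346) and on TPM (limma adjusted p = 0.0227). Of its exon bases, 39.1% overlap ENOSF1 on the opposite strand, and ENOSF1 had a log2 fold change of -0.10 (edgeR adjusted p = 0.408). TK1, the thymidine salvage kinase gene, had 172, 158 and 157 CPM in the overexpression libraries, against 123, 138 and 148 CPM in the empty vector libraries, apart and not called (log2 fold change 0.25, SE 0.0747, adjusted p by edgeR 0.0921). DUT, which removes dUTP and supplies dUMP, had 91.8, 77.7 and 84.8 CPM in the overexpression libraries, against 69.7, 68.9 and 78.0 CPM in the empty vector libraries, with the second overexpression library just under the third empty vector library (log2 fold change 0.23, SE 0.0769, adjusted p by edgeR 0.122). The subunit genes of ribonucleotide reductase, the source of deoxyribonucleotides, were not called. RRM2, the S-phase regulated small subunit, had 116, 117 and 120.0 CPM in the overexpression libraries, against 114, 101 and 105 CPM in the empty vector libraries, and RRM1, the large subunit, had 368, 366 and 404 CPM in the overexpression libraries, against 387, 399 and 376 CPM in the empty vector libraries (log2 fold change 0.14, SE 0.0549, adjusted p by edgeR 0.167 for RRM2; log2 fold change -0.03, SE 0.0525, adjusted p by edgeR 0.785 for RRM1). The RRM1 libraries overlapped, and the difference between RRM1 and RRM2 was not tested.

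Of 5 chromatin and S-phase partner genes, 0 rose and 1 fell. RAD51AP1, which acts in homologous recombination, had 23.2, 24.1 and 25.1 CPM in the overexpression libraries, against 30.8, 33.7 and 29.4 CPM in the empty vector libraries. Every overexpression library lay below every empty vector library (log2 fold change -0.38, SE 0.0738, adjusted p by edgeR 0.0308; chromosome 12, 4538798 to 4560048). Its call held without empty vector replicate 3 (0.0409), and was lost without any other library (0.0642 to 0.109) and after a correction for GC content and length (log2 fold change -0.27, edgeR adjusted p = 0.0896). CHAF1A and CHAF1B, which place histones on new DNA, were at 0.15 and 0.09. SLBP, which binds histone mRNA, was at 0.13, and UHRF1, which guides maintenance methylation, at 0.07 in counts and -0.02 on TPM. Of the not called members of this group, CHAF1A had the largest change, with 173, 180.3 and 187 CPM in the overexpression libraries, against 171, 162 and 157 CPM in the empty vector libraries and no overlap (log2 fold change 0.15, SE 0.0517, adjusted p by edgeR 0.142).

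Of 7 genes of E2F and cyclin control, 1 rose and 0 fell. E2F1, an activator of the G1/S genes and a target of itself, had 153, 140.4 and 152 CPM in the overexpression libraries, against 121, 125 and 128 CPM in the empty vector libraries. The groups did not overlap (log2 fold change 0.25, SE 0.0515, adjusted p by edgeR 0.034; chromosome 20, 33675683 to 33686404), but the call was lost without any 1 library (edgeR adjusted p 0.0509 to 0.121) and after the correction for GC content and length (0.0591). E2F2 had 54.1, 52.3 and 54.3 CPM in the overexpression libraries, against 48.6, 47.1 and 46.8 CPM in the empty vector libraries, apart and not called (log2 fold change 0.17, SE 0.0527, adjusted p by edgeR 0.0975). E2F3 had 44.3, 27.1 and 34.8 CPM in the overexpression libraries, against 34.2, 38.3 and 33.2 CPM in the empty vector libraries, with its overexpression libraries spread on both sides of the empty vector libraries (log2 fold change 0.01, SE 0.176, adjusted p by edgeR 0.987).

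The cyclin genes gave no call. CCND1, the cyclin D1 gene that relays growth signals, had 120.2, 116 and 125 CPM in the overexpression libraries, against 136, 126 and 123 CPM in the empty vector libraries (log2 fold change -0.09, SE 0.0558, adjusted p by edgeR 0.348). CCNE1 had 45.7, 47.4 and 48.0 CPM in the overexpression libraries, against 44.1, 44.3 and 48.0 CPM in the empty vector libraries (log2 fold change 0.05, SE 0.0603, adjusted p by edgeR 0.673), and on TPM its difference was -0.05. CCNE2 had 28.2, 31.6 and 32.6 CPM in the overexpression libraries, against 37.8, 30.3 and 31.2 CPM in the empty vector libraries (log2 fold change -0.11, SE 0.101, adjusted p by edgeR 0.573), and 37.0% of its exon bases overlap INTS8 on the opposite strand. For all 3 cyclins the groups overlapped. CDC25A, the phosphatase that activates cyclin E-CDK2, had 55.9, 48.6 and 57.7 CPM in the overexpression libraries, against 53.2, 47.8 and 51.0 CPM in the empty vector libraries, also with overlap (log2 fold change 0.09, SE 0.0792, adjusted p by edgeR 0.521).

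Set beside each other, the roles differed in their medians, which are given as a description. The median log2 fold change was 0.23 for nucleotide synthesis, 0.22 for MCM2 to MCM7, 0.09 for the chromatin partners, 0.09 for polymerases and primase and 0.08 for the clamp and Okazaki genes. It was 0.05 for E2F and cyclin control and 0.0062 for licensing and firing, where the genes went both ways. MCM2 to MCM7 are only a part of their role, the MCM helicase and relatives. Over all 10 genes of that role the median was 0.17, with 6 positive and 4 negative. By library, the median of MCM2 to MCM7 relative to the mean of the empty vector libraries was 0.24, 0.20 and 0.22 with overexpression, against -0.03, 0.03 and 0.0023 with empty vector (log2 scale). That of nucleotide synthesis was 0.34, 0.13 and 0.20 with overexpression, against -0.0012, -0.03 and 0.03 with empty vector. The medians of E2F and cyclin control overlapped between the groups, with the second overexpression library lowest of all at -0.06. All 58 genes together took up 0.707, 0.686 and 0.718% of the counts with overexpression and 0.653, 0.651 and 0.658% with empty vector.

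**Figure D3:**
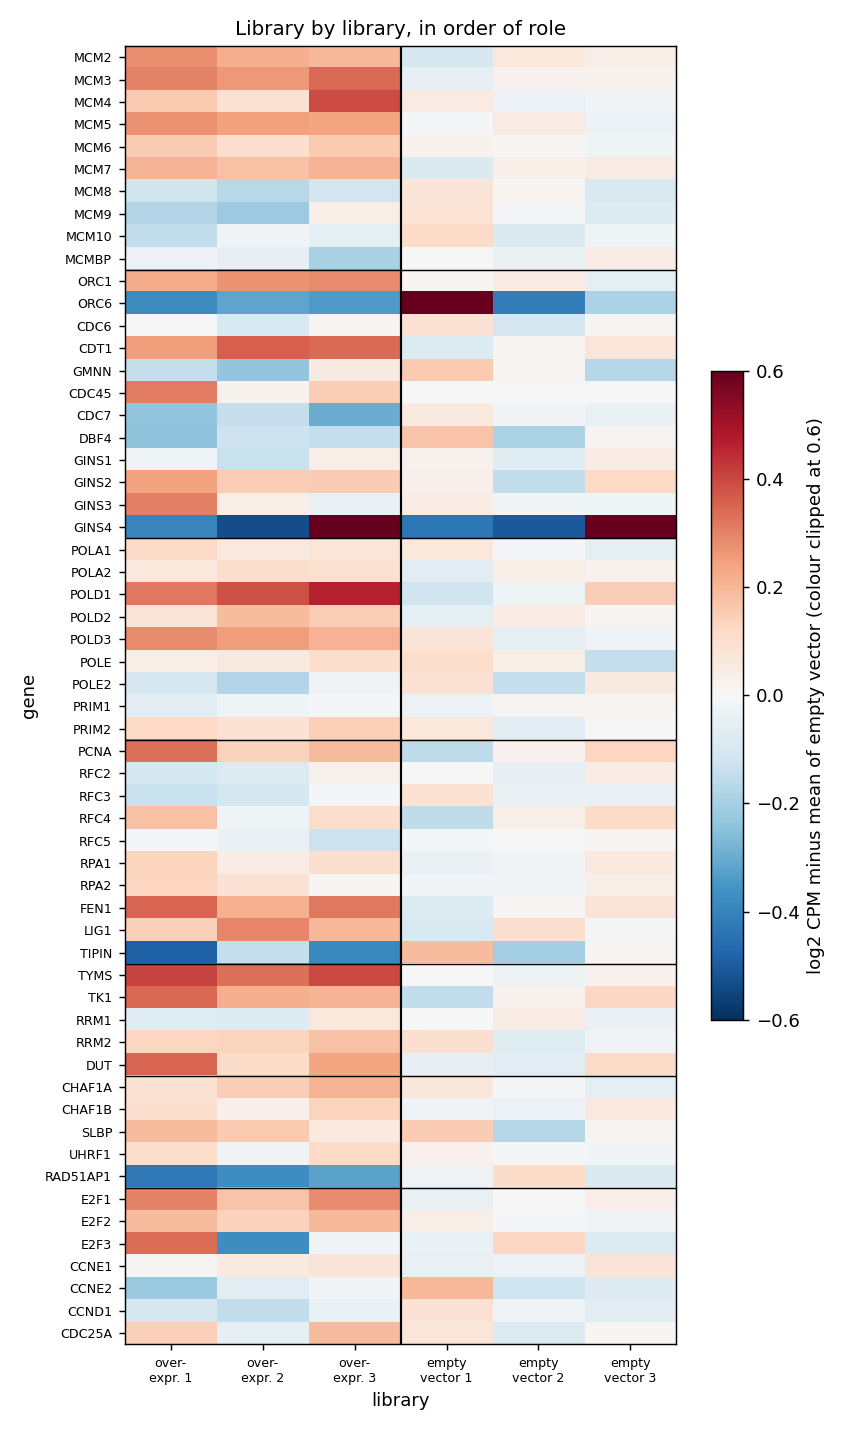
Log2 CPM of each gene in each library minus the mean of the 3 empty vector libraries, with overexpression libraries in the left columns, in order of role (black lines) and with colours clipped at 0.6. The red block of MCM2 to MCM7 spans all 3 overexpression libraries, and GINS4 stands out in replicate 3 of both groups and ORC6 in empty vector replicate 1.

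Most of the 58 genes varied little within a group. The widest ratio of highest to lowest library within a group had a median of 1.12, and 3 genes reached 1.5, GINS4 at 2.9, ORC6 at 2.04 and E2F3 at 1.63. In TPM, MCM2, MCM7, FEN1, PCNA and POLD2 were the most abundant with overexpression, from 320.2 ± 18.7 TPM for MCM2 to 270.4 ± 13.3 TPM for POLD2 (SD, n = 3 each). MCM7 at 305 ± 0.908 TPM and FEN1 at 304 ± 13.3 TPM did not differ beyond their spread, whereas FEN1 and the next gene, PCNA at 275 ± 17.4 TPM, differed by more than the SD of either. MCM9 was lowest in both groups, at 3.96 ± 0.235 TPM with overexpression and 4.90 ± 0.783 TPM with empty vector.

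The genes with higher counts tended to be those that were higher with overexpression. Of 23 genes with at least 100 CPM, 20 had a positive log2 fold change and 8 rose, with a median of 0.19, and of 35 below that level 18 were positive and 2 rose, with a median of 0.0071. Of all genes tested, 170 of 2297 (7.4%) at or above 100 CPM were called higher, and 314 of 11246 (2.79%) below it, and of the 58 genes these shares were 34.8% and 5.71%. Over all genes tested, the medians were 0.03 at or above 100 CPM and -0.01 below it. Spearman's rho between log2 fold change and level was 0.574 across the 58 genes and 0.102 across all 13543. With GC content of the transcripts, rho was 0.613 across the 58 and 0.245 across the 13529 genes with a value. These are correlations across genes that share libraries, given as a description. After a correction of each library for GC content and length, an alternative chosen after seeing the data, 10 of the 58 were higher and 0 lower, with 5.68% of all genes called. MCM6 was then called (log2 fold change 0.18, edgeR adjusted p = 0.0351), and the calls of E2F1 and RAD51AP1 were lost. The part of level in these differences was not tested.

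**Figure D4:**
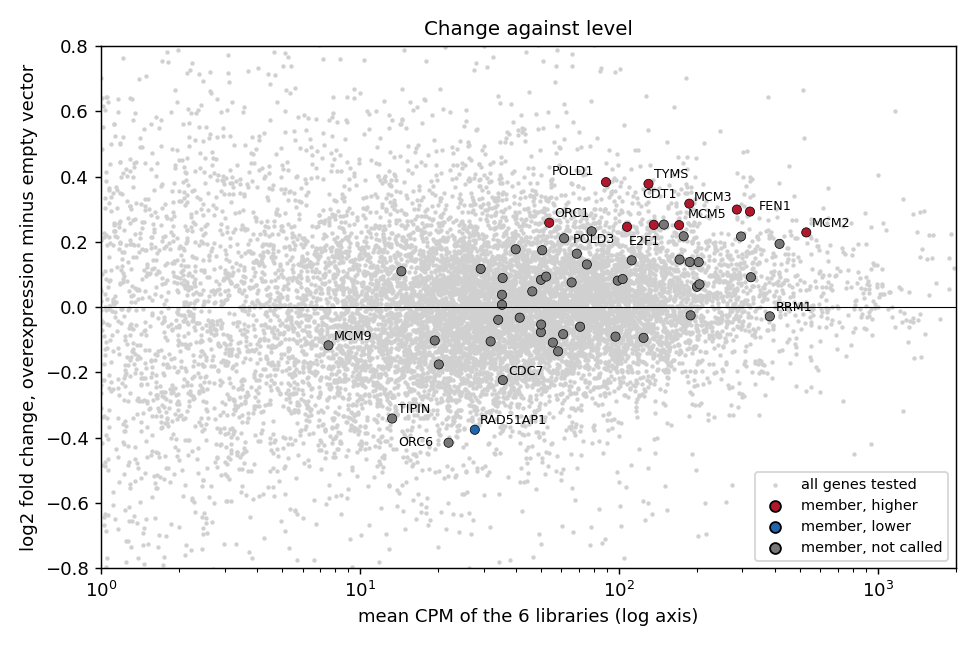
Log2 fold change (vertical axis) against mean CPM of the 6 libraries (log axis) for the 58 genes in colour, over all genes tested in grey. Genes under 1 CPM, above the upper limit of the CPM axis or past 0.8 on the vertical axis are not shown. Of the 10 genes that rose, 8 lie at or above 100 CPM, and RAD51AP1, TIPIN and ORC6 lie low at under 50 CPM.

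A list of 77 other replication and G1/S genes, 76 of them tested, held 4 that rose and 1 that fell. That is 5.26% higher and 6.58% in either direction, near the 3.57% and 5.6% of all genes tested, and 26.3% of the 76 lay apart between groups, against 31.4% of all genes. Those that rose were TIMELESS, the histone chaperone gene ASF1B, the transcription factor gene MYBL2 and the CDK4/6 inhibitor gene CDKN2C, and the one that fell was CDKN2B. CDKN2C, which encodes p18, had 72.8, 70.9 and 73.0 CPM in the overexpression libraries, against 47.7, 53.8 and 49.99 CPM in the empty vector libraries (log2 fold change 0.52, SE 0.0598, adjusted p by edgeR 0.00639). CDKN2B, which encodes the related inhibitor p15, had 25.8, 22.4 and 24.1 CPM in the overexpression libraries, against 38.05, 34.3 and 35.5 CPM in the empty vector libraries (log2 fold change -0.58, SE 0.0768, adjusted p by edgeR 0.00977). The pair thus lay apart in opposite directions. ASF1B had 165, 159 and 162 CPM in the overexpression libraries, against 130.4, 134 and 147 CPM in the empty vector libraries (log2 fold change 0.24, SE 0.0548, adjusted p by edgeR 0.0448), and MYBL2, an E2F target, averaged 569 ± 11.8 CPM with overexpression and 497 ± 12.2 CPM with empty vector (SD, n = 3 each) (log2 fold change 0.20, SE 0.0416, adjusted p by edgeR 0.0382). The median of the 76 was 0.02, and CCND2, listed at 0 counts in every library, was not tested. Of the other subunit genes of the origin recognition complex, ORC2 was at -0.09, ORC3 at -0.21, ORC4 at -0.17 and ORC5 at -0.21 on the log2 scale, none called. Another list held 8 general markers of proliferating cells, MKI67, TOP2A, CDK1, CCNB1, CCNB2, PLK1, BUB1 and AURKA. Of these, PLK1 rose (log2 fold change 0.25, edgeR adjusted p = 0.0341) and 0 fell, but 7 of the 8 were positive, with a median of 0.07, beside 0.09 for the 58 genes. In 3 of the 8 all overexpression libraries lay above all empty vector libraries, against 15.9% of all genes tested. AURKA, a mitotic kinase gene, was one of these, with 71.8, 65.1 and 66.6 CPM in the overexpression libraries, against 53.5, 56.0 and 63.3 CPM in the empty vector libraries (log2 fold change 0.24, SE 0.0757, adjusted p by edgeR 0.112). The summed level of the 8 overlapped between groups, at 1237 to 1258 CPM with overexpression and 1116 to 1270.0 CPM with empty vector, and the part of these markers in the results for the 58 genes was not tested. MKI67 averaged 384 ± 24.9 CPM with overexpression and 361 ± 55.6 CPM with empty vector (SD, n = 3 each) and TOP2A averaged 376 ± 12.2 CPM with overexpression and 369.5 ± 17.3 CPM with empty vector (SD, n = 3 each), and neither was called (adjusted p by edgeR 0.677 and 0.811).

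The 11 called genes all kept their sign without each of the 6 libraries. That was close to certain in advance, as their groups did not overlap in CPM. Of the 11, 1 kept its call in all 6 such fits (TYMS) and 3 lost it in all 6 (MCM2, ORC1 and E2F1). Without 1 library, 1 to 6 of the 58 genes were called higher and 0 or 1 lower. The share of all genes called in these fits was 1.7%, 1.73% and 1.41% without overexpression replicates 1, 2 and 3, and 3.02%, 2.03% and 3.35% without empty vector replicates 1, 2 and 3, against 5.6% with all 6 libraries. With all 6, DESeq2 called 12 of the 58 higher and 1 lower, with 10.1% of all genes called, and limma-voom called 10 higher and 1 lower, with 5.52%.

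**Figure D5:**
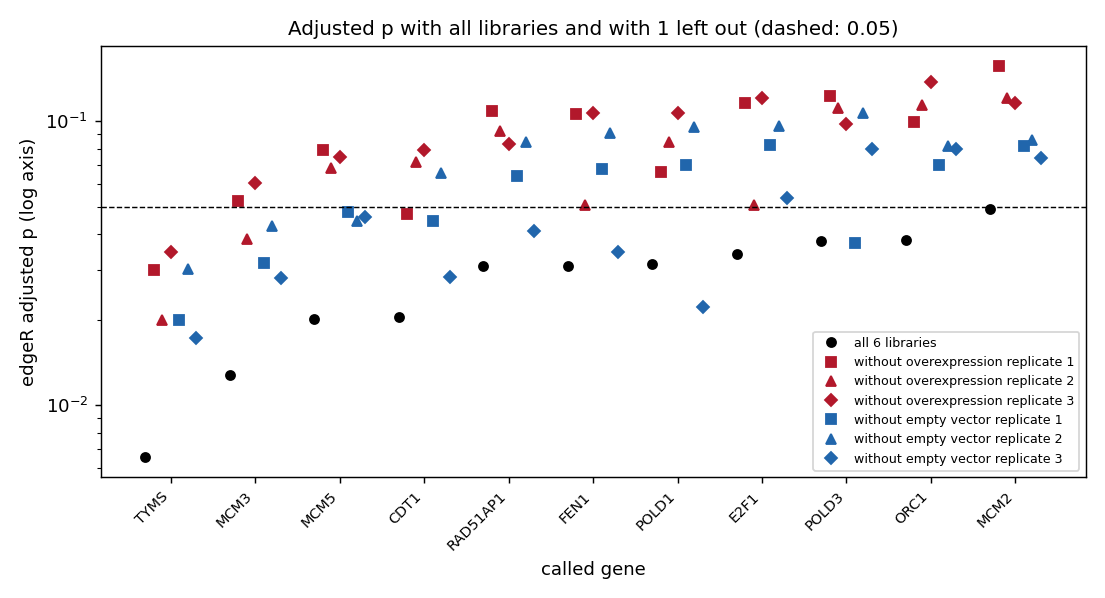
EdgeR adjusted p (log axis) of the 11 called genes with all 6 libraries (black) and with 1 library left out (red for an overexpression library, blue for an empty vector library), with a dashed line at 0.05. TYMS lies under the line in all fits, and MCM2, ORC1 and E2F1 lie under it with all 6 libraries only.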

How the data were processed

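The members and lists were chosen with earlier results of these data known. The submitters' processing notes name Trimmomatic 0.36 (read trimming), HISAT2 (alignment), featureCounts in Subread 1.5.1 (counting), DESeq and the build GRCh38; which tool served each step is inferred from its usual use. The deposited counts per gene were whole numbers with no normalization. The deposited TPM served for levels per length and for alternative fits. They are not these counts over a fixed length, as the ratio of TPM to CPM of a gene varied between libraries. Their tool, the annotation and the strand setting are not given in the sources at hand, so reads of overlapping genes cannot be told apart. All 12 columns were assigned by name and 0 were left over. Symbols came from a gene name table (20148 of 20263 IDs) and positions from GENCODE release 29.

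Counts were tested in R 4.3.3 with edgeR 4.0.16 (filterByExpr with a minimum count of 10 and total of 15, TMM, robust quasi-likelihood F test, group as the only term, all 6 libraries), with Benjamini-Hochberg adjustment over 13543 genes and calls under 0.05. The SE is the absolute log2 fold change divided by the square root of F, and CPM are TMM-scaled. The test was checked on simulated counts. No 2 libraries of a group agreed within sampling noise (chi-square per degree of freedom of at least 19.8). Alternatives used DESeq2 1.42.0, limma 3.58.1 (voom on counts; limma-trend on log2(TPM + 0.1), with TPM of at least 0.5 in 3 libraries), other scalings and filters, a replicate block and each library left out. Values in every library are given for called genes, MCM2 to MCM7, nucleotide synthesis, E2F and cyclin genes, and the largest uncalled change of each other role. Others named with such values were chosen after their values were seen.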

Additional observations from a re-analysis of the deposited data

How the results depend on the processing

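EdgeR called 759 genes, 10 of the 58 higher and 1 lower, and 4 of the other pathway genes higher and 1 lower. On TPM, limma called 227 genes with a pseudocount of 0.1, 241 with 1 and 176 without a filter (103 higher and 124 lower with 0.1), with 1 of the 58 higher (TYMS) in each, TIPIN lower and 0 of the other pathway genes higher. DESeq2 called 1319 genes and 12 of the 58 higher, adding MCM7 and TK1. With library size only, 346 of all genes were higher and 382 lower (484 and 275 with TMM), and 7 of the 58 and 2 of the other genes were higher. After the correction for GC content and length, which was added after seeing the data, 0 of the 58 were lower and 2 of the other genes higher. With 1 library left out, counts ranged from 193 to 458 for all genes, 1 to 6 of the 58 higher, 0 to 1 lower and 1 to 3 of the other genes higher, with fewer libraries in the fit. Same-numbered libraries correlated weakly in their deviations from group means (0.0367, 0.0547 and 0.0449), each best with its own number, which is a hint from the data and not the design. With the number as a replicate block, 232 genes were called, 4 of the 58 higher (MCM3, CDT1, POLD1 and TYMS) and 0 lower, and 1 of the other genes higher. The other scalings and filters, limma-voom and a fit leaving out mitochondrial and ribosomal genes called 720 to 787 genes and 9 or 10 of the 58 higher. Of 1102 alternative values of single members, 91 lost a call, 6 gained one and 0 calls turned direction. The causes were not tested. Every change among the 58 that edgeR called with all 6 libraries was under 1.5-fold. The TIPIN call by limma on TPM was larger, with a difference in log2(TPM + 0.1) of -0.88. Every member had at least 265 counts in each library, and 3 libraries a group set the precision. A gene that was not called is not shown to be unchanged.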
